A study of Mus musculus with 15 samples.

Results

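The regions examined were the bodies of 10 imprinted mouse genes whose control regions carry DNA methylation from the mother: Peg3, Peg10, Sgce, Kcnq1ot1, Airn, Grb10, Inpp5f, Gnas, Impact and Plagl1. Their CpGs were taken as all measured positions inside the RefSeq span of each gene, plus 2 kb on either side, and positions inside Igf2r were to be left out, which removed 0. This gave 70 of 204492 CpG positions, in 9 of the 10 genes. The data are reduced representation bisulfite sequencing of sperm DNA, a method that cuts DNA with MspI at CCGG and converts unmethylated cytosines, so that the methylation level of a CpG is the share of its reads that stay unconverted. There were 8 libraries from protein restricted and 7 from control C57BL/6 males of generation G1. The labels do not say whether the sampled males or a parent ate the diet, nor whether libraries share a litter. The p-values therefore set a difference only against the spread between these libraries. Where that spread was below counting error, the quasi-binomial test described with the diet comparison used counting error instead. Read counts summed over all listed CpGs ran from 6650912 to 10712016 in protein restricted libraries and from 7846118 to 11841657 in control libraries. The member CpGs had a mean coverage of 19.1 to 75.8 reads, with a median of 31.7, against a median of 32.0 over all listed CpGs.

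Genomic imprinting is the expression of a gene from the copy of 1 parent only. At most imprinted loci the choice is set by a control region that is methylated in the egg and left unmethylated in sperm, or less often the reverse, and that keeps this difference in all tissues of the offspring. For the genes described here the egg carries the mark, so the region around the imprinted promoter is unmethylated in sperm, while the rest of the gene is methylated as most of the sperm genome is. Paternally marked regions are methylated in sperm, and windows upstream of 4 genes with such a region nearby were searched. The 3 listed CpGs within 20 kb upstream of Meg3 were at 97.2% ± 3.19 (SD, n = 8) in protein restricted and 98.9% ± 0.822 (SD, n = 7) in control sperm. The 4 CpGs from 20 to 40 kb upstream of Rasgrf1 were at 92.1% ± 3.20 (SD, n = 8) in protein restricted and 92.9% ± 1.99 (SD, n = 7) in control sperm. No CpG was listed upstream of H19 or Zdbf2 in the regions searched, up to 5 and 20 kb. The windows were set by distance from the RefSeq gene start, not by the bounds of the control regions, so a window can miss its region. Every listed position has methylated reads in every library, and the median over all listed CpGs was 98.2%. High levels here therefore cannot tell a paternal mark from the rest of the sperm genome.

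No member CpG lay within 1 kb, or 2 kb, of a gene start. The lowest count of methylated reads at any deposited position in any library was 11, so a CpG that is unmethylated in sperm is rarely listed, and its absence is not a measurement of its level. The nearest listed CpG to any start of a member was 5.74 kb away, in Gnas. RefSeq (GRCm38.p6) gave promoter windows, from 250 bases before to 50 after the start, for 11 starts of 7 of the genes, while Peg10, Sgce and Impact had none in the table. Of these 11 windows 6 hold the MspI site CCGG, which reads the same on both strands, and none holds a listed CpG. Windows of Plagl1, Grb10 and Gnas that are rich in CpG and cut sites, and the one of Peg3, which has no CCGG, are shown 5′ to 3′ on the strand of the gene, with CCGG in capitals, because they are among the promoter sequences on which the list is silent. They were picked for CpGs and cut sites, not as the egg-methylated regions. Grb10 and Gnas have other starts, whose windows are not shown. Which start of a gene lies in its egg-methylated region was not tested.

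Plagl1, chr10:13090582-13090881, plus strand: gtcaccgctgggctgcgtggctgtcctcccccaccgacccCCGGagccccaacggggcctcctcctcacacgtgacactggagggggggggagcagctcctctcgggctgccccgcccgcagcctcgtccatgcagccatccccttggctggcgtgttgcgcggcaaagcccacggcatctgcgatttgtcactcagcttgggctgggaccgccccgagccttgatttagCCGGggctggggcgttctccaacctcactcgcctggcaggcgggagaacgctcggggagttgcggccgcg

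Grb10, chr11:12037371-12037670, minus strand: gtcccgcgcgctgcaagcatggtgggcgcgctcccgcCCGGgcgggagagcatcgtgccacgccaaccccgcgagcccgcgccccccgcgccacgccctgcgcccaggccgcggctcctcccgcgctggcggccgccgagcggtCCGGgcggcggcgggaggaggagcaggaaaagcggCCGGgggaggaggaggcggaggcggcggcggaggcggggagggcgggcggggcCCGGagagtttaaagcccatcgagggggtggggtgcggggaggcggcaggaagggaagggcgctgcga

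Gnas, chr2:174329756-174330055, plus strand, the most downstream of its 4 starts: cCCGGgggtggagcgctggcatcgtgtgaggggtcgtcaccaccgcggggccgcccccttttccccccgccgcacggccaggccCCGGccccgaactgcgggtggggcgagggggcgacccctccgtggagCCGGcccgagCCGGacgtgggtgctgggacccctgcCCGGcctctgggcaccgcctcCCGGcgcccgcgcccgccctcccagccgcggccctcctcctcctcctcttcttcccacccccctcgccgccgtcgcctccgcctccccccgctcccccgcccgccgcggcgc

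Peg3, chr7:6730370-6730669, minus strand: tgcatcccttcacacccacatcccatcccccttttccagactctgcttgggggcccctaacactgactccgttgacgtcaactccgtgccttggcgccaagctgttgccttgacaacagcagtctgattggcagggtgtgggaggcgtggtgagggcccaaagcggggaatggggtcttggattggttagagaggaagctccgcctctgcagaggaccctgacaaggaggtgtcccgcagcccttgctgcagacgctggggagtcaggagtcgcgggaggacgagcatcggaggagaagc

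The Grb10 window holds 45 CpGs and 4 CCGG, the Gnas window 40 and 6, the Plagl1 window 26 and 2, and the Peg3 window 13 CpGs. Few promoter windows held a listed CpG at all: 52.8% of 32817 RefSeq promoter windows contain CCGG, 0.981% contain a listed CpG, and among the 8684 windows with at least 20 CpGs only 2 contain one, or 0.0230%. The windows of Kcnq1ot1 and Airn, with 9 and 3 CpGs, also lack CCGG. So do those of the Gnas starts at 174327749 and 174327768, with 27 and 28 CpGs.

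At their listed CpGs 7 of the genes were almost fully methylated in sperm, and 2 genes held partly methylated stretches, Peg3 and Peg10. Every listed position has methylated reads in every library, so the levels of the unlisted CpGs in these bodies are not known. Of the 70 CpGs, 57 had a mean of 90% or more over the 15 libraries (81.4%, against 89.7% of all listed CpGs), and 10 were under 80% (8 in Peg3 and 2 in Peg10). The median CpG was at 98.0%, against 98.2% over all listed CpGs. The positions form 26 stretches in which neighbours lie within 300 bp and can share reads, so the CpGs of a stretch are not independent. Strands of Peg10, Sgce and Impact, which the table lacks, are from general knowledge.

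**Figure D1:**
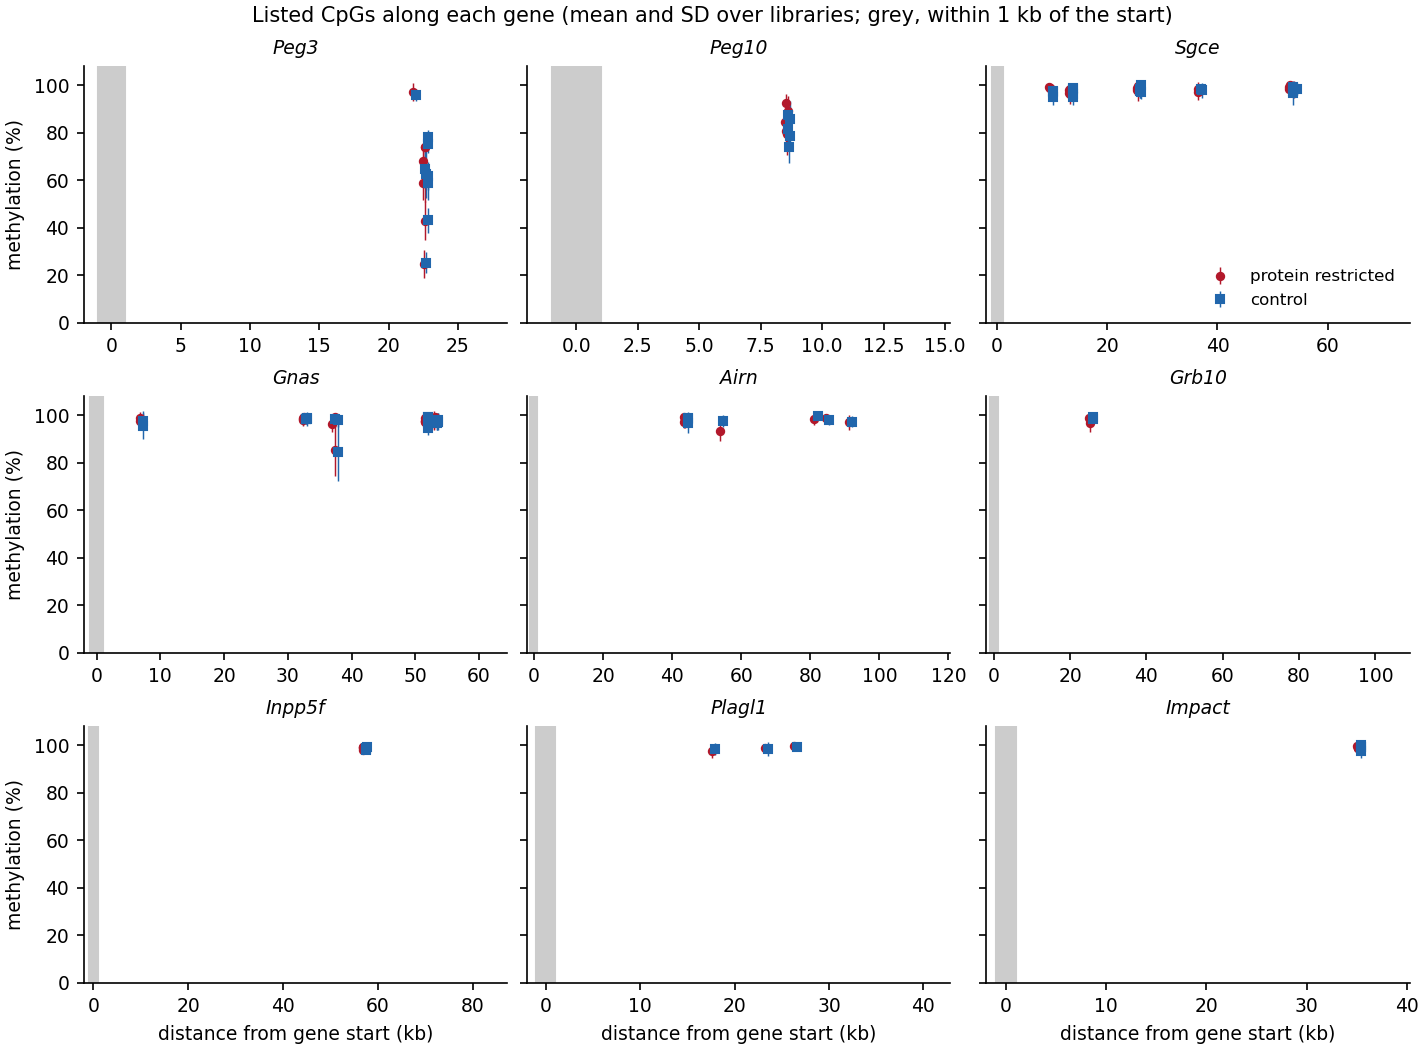
Methylation (%) of each listed CpG against its distance from the gene start (kb) in the 9 genes with listed CpGs. Circles are protein restricted and squares control means, bars are SD over 8 and 7 libraries, set slightly apart along the axis, and the grey band marks 1 kb on either side of the start, where no CpG is listed. The CpGs lie near the top except in Peg3 and Peg10 and at 1 CpG of Gnas.

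Peg3 encodes a zinc finger protein expressed from the paternal copy, and in sperm it held the lowest levels of the set. Its 8 lowest CpGs lie together in 211 bp (mm10 chromosome 7, 6707691 to 6707901), 3.80 kb from the downstream end of the gene and 67 bp past the annotated end of the antisense RNA Peg3os. Averaged over these 8 CpGs, protein restricted libraries had 52.4% at the lowest, 58.8% at the median and 63.6% at the highest, and control libraries 54.5%, 58.9% and 62.6%. The ranges of the diets lie almost on top of each other.

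Within the stretch the level differed from CpG to CpG, with a similar profile in both diets. The CpG at 6707829 was the lowest of the 8 in 15 of 15 libraries, with 14.1%, 25.9% and 31.1% as lowest, median and highest in protein restricted and 18.9%, 26.2% and 29.8% in control libraries. Next came 6707734, at 43.0% ± 8.19 (SD, n = 8) in protein restricted and 43.1% ± 5.09 (SD, n = 7) in control sperm, while 6707730, only a few bases away, ran from 67.6% to 80.7% in protein restricted and from 74.0% to 83.0% in control libraries. The highest CpG of the stretch was 6707730 in 8 libraries and 6707691 in 4, and in 1 more library these 2 were tied. The CpG at 6708587, 686 bp beyond the stretch, was at 97.2% ± 3.72 (SD, n = 8) in protein restricted and 96.0% ± 2.53 (SD, n = 7) in control sperm. Mean coverage was 75.5 to 75.8 reads at the 6 positions from 6707691 to 6707829 and 32.2 to 32.5 at the other 2.

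Peg10, a retrotransposon-derived gene needed for placenta formation in mice, had a single stretch of 5 CpGs in 103 bp (chromosome 6, 4755856 to 4755958), 8.55 to 8.65 kb from its start. Over the summed counts of these CpGs, protein restricted libraries had 81.2% at the lowest, 84.5% at the median and 92.1% at the highest, against 72.6%, 82.7% and 85.7% in control libraries. The diets overlap between 81.2%, the lowest protein restricted library, and 85.7%, the highest control library, and 7 of 8 protein restricted libraries were above the control mean. The highest library, protein restricted replicate 4, had 92.1% with a 95% Wilson interval of 86.9% to 95.3%, and the lowest, control replicate 6, had 72.6% with 65.5% to 78.6%. Such intervals cover counting error only. The CpG at 4755880 was alone the highest in 6 of 15 libraries and highest or tied in 12. The CpG at 4755946 was the lowest in 7 libraries, and 4755892 was alone the lowest in 6 and lowest or tied in 7.

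**Figure D2:**
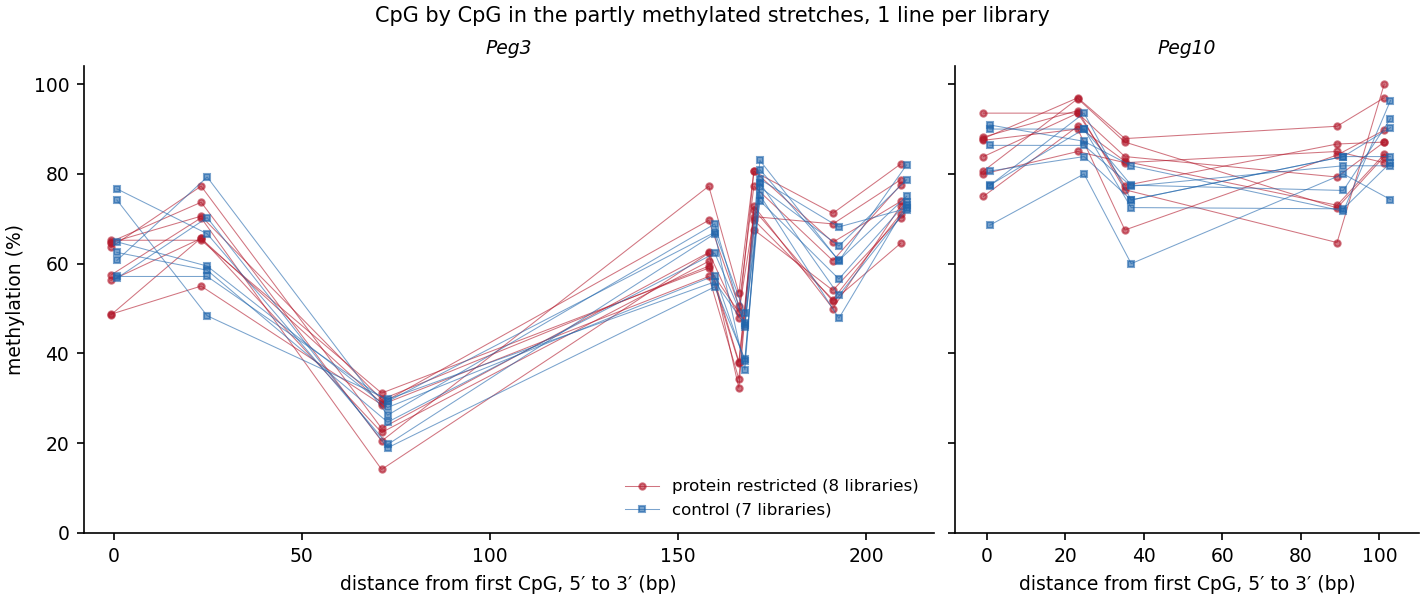
Methylation (%) of single CpGs in the partly methylated stretches of Peg3 (8 CpGs) and Peg10 (5 CpGs) against the distance in bp from the first CpG in the direction of transcription, with 1 line per library. In Peg3 all 15 lines dip to their lowest point at the same CpG, and in both genes the lines of the 2 diets run through each other.

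Sgce and Peg10 lie head to head and share the maternally methylated control region between them. Sgce encodes epsilon-sarcoglycan, a membrane protein whose human counterpart is mutated in myoclonus dystonia. Its 18 CpGs fall in 6 stretches between 9.77 and 54.2 kb from the start, with CpG means of 96.0% to 99.8%. The summed CpGs had 97.3%, 98.5% and 99.3% as lowest, median and highest in protein restricted and 96.9%, 97.7% and 98.2% in control libraries. In 7 of 8 protein restricted libraries the value was above the control mean, while the ranges overlap. The lowest CpG of Sgce, at 4733803, was at 96.6% ± 2.53 (SD, n = 8) in protein restricted and 95.2% ± 3.69 (SD, n = 7) in control sperm.

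Gnas encodes the stimulatory G protein subunit Gs alpha and several other products from alternative promoters. It had 18 CpGs in 6 stretches, 17 of them at means of at least 95% over all libraries. The summed CpGs had 96.8%, 97.7% and 98.5% as lowest, median and highest in protein restricted and 95.3%, 97.6% and 98.3% in control libraries. The exception was the CpG at 174321981 on chromosome 2, inside the predicted gene Gm30189, at 69.2%, 84.0% and 100% as lowest, median and highest in protein restricted and 69.2%, 84.6% and 100% in control libraries. Both diets spanned the same range, with 3 of 8 protein restricted and 2 of 7 control libraries at 90% or more. A CpG 33 bp away was at 99.2% ± 1.39 (SD, n = 8) in protein restricted and 97.9% ± 2.71 (SD, n = 7) in control sperm. The spread at 174321981 was 2.77 times the variance that counting gives, a ratio reached by 2.09% of the 9731 listed CpGs with means from 80% to 90%. The smallest p of the gene was at 174321539, also in Gm30189, with 96.5% ± 3.43 (SD, n = 8) in protein restricted and 98.3% ± 2.21 (SD, n = 7) in control sperm. That p was 0.255, unadjusted, in the quasi-binomial test described with the diet comparison.

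Airn and Kcnq1ot1 are long noncoding RNAs made from the paternal copy that silence neighbouring genes, Igf2r for Airn and genes such as Cdkn1c for Kcnq1ot1. Airn had 7 CpGs in 5 stretches, 44.0 to 91.7 kb from its start and all outside Igf2r. Its summed CpGs had 96.3%, 97.1% and 98.7% as lowest, median and highest in protein restricted and 97.5%, 98.0% and 99.2% in control libraries. Of the 8 protein restricted libraries 6 were below the control mean, and the ranges overlap. Kcnq1ot1, 83.4 kb long (chromosome 7, 143213111 to 143296547), had no listed CpG. It lies inside Kcnq1, a potassium channel gene, whose listed CpGs leave a gap of 188 kb around it. On the lower side of the gap 4 CpGs were at 97.9% ± 1.36 (SD, n = 8) in protein restricted and 98.8% ± 0.963 (SD, n = 7) in control sperm, and on the upper side 14 CpGs were at 98.0% ± 0.885 (SD, n = 8) in protein restricted and 98.4% ± 0.721 (SD, n = 7) in control sperm. Of 3442 RefSeq genes at least as long as Kcnq1ot1, 133 (3.86%) had no listed CpG.

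The remaining genes each had 2 to 4 CpGs, all highly methylated. Grb10 encodes an adaptor that restrains insulin and growth factor signalling, and its 2 CpGs (chromosome 11, 12011812 and 12011917) averaged 97.8% ± 1.55 (SD, n = 8) in protein restricted and 98.9% ± 1.60 (SD, n = 7) in control sperm. Its protein restricted libraries had 94.6%, 98.4% and 99.3% as lowest, median and highest, and its control libraries 95.7%, 100% and 100%. Plagl1 encodes a zinc finger regulator of cell proliferation, and its 3 CpGs, 17.7 to 26.5 kb from the start, averaged 98.7% ± 0.884 (SD, n = 8) in protein restricted and 98.8% ± 1.48 (SD, n = 7) in control sperm. Impact encodes an inhibitor of amino acid sensing through the kinase Gcn2, and its 4 CpGs in 28 bp on chromosome 18 averaged 99.1% ± 1.02 (SD, n = 8) in protein restricted and 99.1% ± 0.703 (SD, n = 7) in control sperm. Inpp5f encodes a phosphoinositide phosphatase with an imprinted variant in brain, and its 4 CpGs, about 57 kb from the start, averaged 98.9% ± 0.680 (SD, n = 8) in protein restricted and 98.7% ± 1.10 (SD, n = 7) in control sperm. The CpGs with the smallest p in these genes, 12011812 in Grb10, 13108546 in Plagl1, 12989936 in Impact and 128668310 in Inpp5f, had unadjusted p from 0.116 to 0.614 in the quasi-binomial test described with the diet comparison. With 4 or fewer CpGs per gene, these values cover 1 to 3 short stretches of genes that are 38.3 to 107 kb long.

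**Figure D3:**
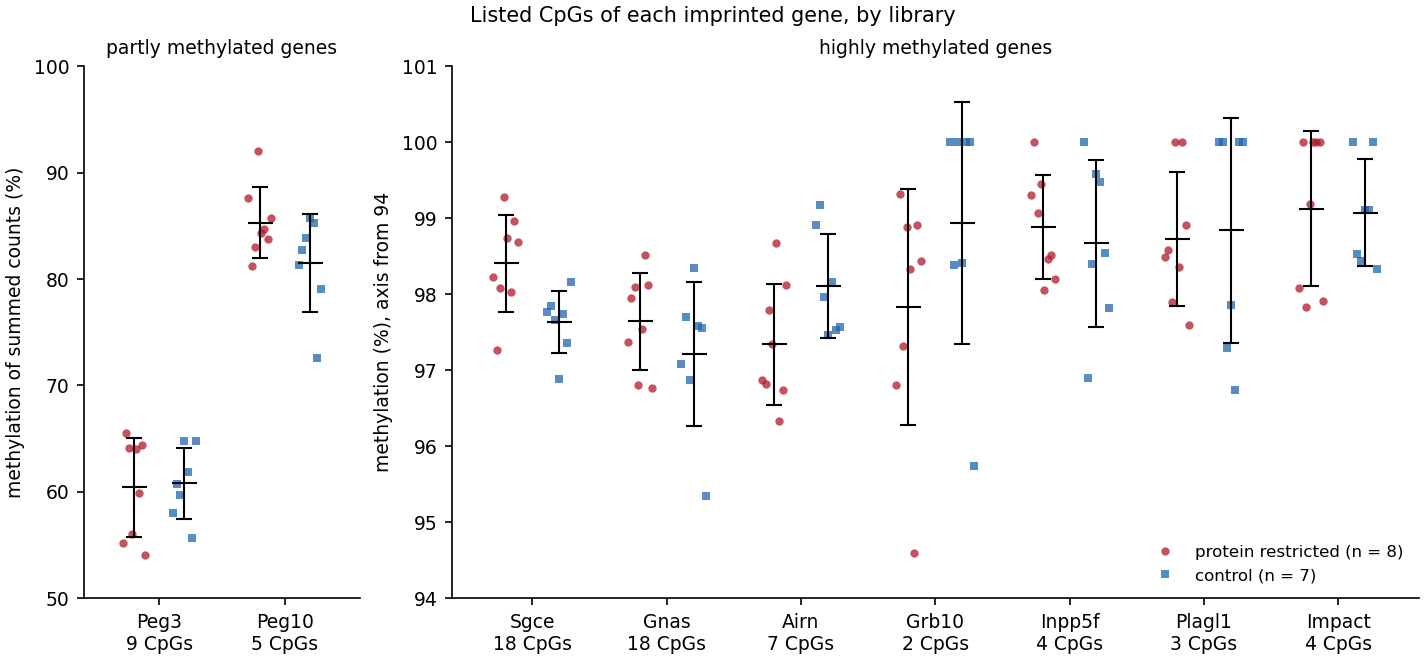
Methylation (%) of the summed CpGs of each gene in each library. Circles are protein restricted (n = 8) and squares control libraries (n = 7), with black bars for mean and SD, and the right panel has an axis that starts at 94%. In all 9 genes the points of the diets overlap.

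The comparison implied by the design is protein restricted against control. Counts were tested with a quasi-binomial logistic model on diet, once per CpG over all 204492 CpGs and once per gene, on summed counts, over all 20804 genes with a listed CpG, with Benjamini-Hochberg adjustment over each whole table. No CpG passed an adjusted p of 0.05 (0% of all CpGs), so 0 of 70 member CpGs did. At an unadjusted p under 0.05 there were 2 of 70 member CpGs (2.86%), 1 higher and 1 lower in protein restricted sperm, against 3.79% of all CpGs, 1.89% higher and 1.9% lower. The member count was 1 without protein restricted replicate 2, 4 or 5 or control replicate 1 or 3, and 3 without protein restricted replicate 7 or control replicate 4. At a coverage minimum of 20 reads it was 1 of 30 CpGs, against 3.47% of all CpGs kept. limma, a moderated linear model, also called 0 CpGs, with 3 of 70 member CpGs at an unadjusted p under 0.05 on percentages and 4 on logit values, each against 4.56% of all CpGs. Among the 70 CpGs 42 had the higher mean in protein restricted and 28 in control sperm. The CpGs form 26 stretches whose neighbours can share reads, so these are not independent counts. The median difference was 0.349 points, against 0 over all listed CpGs. Of the member CpGs 0 had diets that do not overlap, against 0.0191% of all CpGs. Mean methylation over the 70 CpGs was 92.6% ± 0.609 (SD, n = 8) in protein restricted and 92.1% ± 0.567 (SD, n = 7) in control sperm.

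The 2 CpGs with an unadjusted p under 0.05 lie in Sgce and Airn. In Sgce, the CpG at 4737433 on chromosome 6, 9.77 kb from the start, had 96.0%, 100% and 100% as its lowest, median and highest values in protein restricted and 89.8%, 96.1% and 98.0% in control libraries. It was at 100% in 6 of 8 protein restricted and in 0 of 7 control libraries, and the other 2 protein restricted libraries fall inside the control range. The difference of 4.001 points gave p = 0.00981 before and 1 after adjustment in the quasi-binomial test. In Airn, the CpG at 12795571 on chromosome 17 had 87.5%, 93.8% and 100% in protein restricted and 94.1%, 97.4% and 100% in control libraries. The difference of -4.13 points gave p = 0.0354 before and 1 after adjustment in the quasi-binomial test. The largest differences in either direction were at the partly methylated CpGs, 6.77 points at 4755892 in Peg10 and -6.01 points at 6707901 in Peg3, with unadjusted p of 0.0968 and 0.141.

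At the level of genes, 1 of 9 members had an unadjusted p under 0.05, Sgce, against 3.06% of all genes, and no gene passed the adjustment (0% of all genes). No member had diets that do not overlap, against 0.024% of all genes. The Sgce difference was 0.775 points (SE 0.273), where the quasi-binomial test gave p = 0.0201 before and 1 after adjustment. Within Sgce the 3 CpGs nearest the start averaged 98.9% ± 1.40 (SD, n = 8) in protein restricted and 96.6% ± 1.18 (SD, n = 7) in control sperm, the widest difference of its 6 stretches at 2.30 points. With at least 20 reads required in every library, only these same 3 of its 18 CpGs stayed. The gene difference of 2.29 points then repeats that of this stretch and is not a separate result. Without protein restricted replicate 4 the unadjusted p of Sgce was 0.0561. With equal weight for each CpG, limma gave a difference of 0.635 points and an unadjusted p of 0.0728. On summed counts limma gave Sgce an unadjusted p of 0.0360 on percentages and 0.0251 on logit values. In those 2 fits 981 and 965 of all 20804 genes had an unadjusted p under 0.05, and none passed the adjustment.

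Peg10 had the widest gene difference of the set, 3.79 points (SE 2.09), with an unadjusted p of 0.175. For Peg10 limma gave an unadjusted p of 0.0678 on percentages, 0.118 on logit values and 0.0661 with equal weight for each CpG. All 5 of its CpGs had the higher mean in protein restricted sperm, but they can share reads. Without control replicate 6 the difference was 2.30 points. The absolute difference was larger than that of 97.8% of all genes, while its level was lower than that of all but 7.08% of them. For Peg3 the difference was -0.378 points (SE 2.09, unadjusted p of 0.871), for Airn -0.772 (SE 0.384, unadjusted p of 0.176) and for Grb10 -1.11 (SE 0.816, unadjusted p of 0.291). Without control replicate 7 the Grb10 difference was -1.64 points, with an unadjusted p of 0.0445, and without protein restricted replicate 6 it was -0.645 points, with an unadjusted p of 0.463. The differences of Gnas, Inpp5f, Impact and Plagl1 lay between -0.114 and 0.434 points, with unadjusted p from 0.330 to 0.974. Each member had an adjusted p of 1 in the quasi-binomial test over all genes. The median difference of the 9 genes was 0.0531 points, against -0.00577 over all 20804 genes. A p that misses the threshold does not show that the diets give the same level, and for Peg3 and Peg10 the SE of about 2 points leaves the difference loosely bounded.

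**Figure D4:**
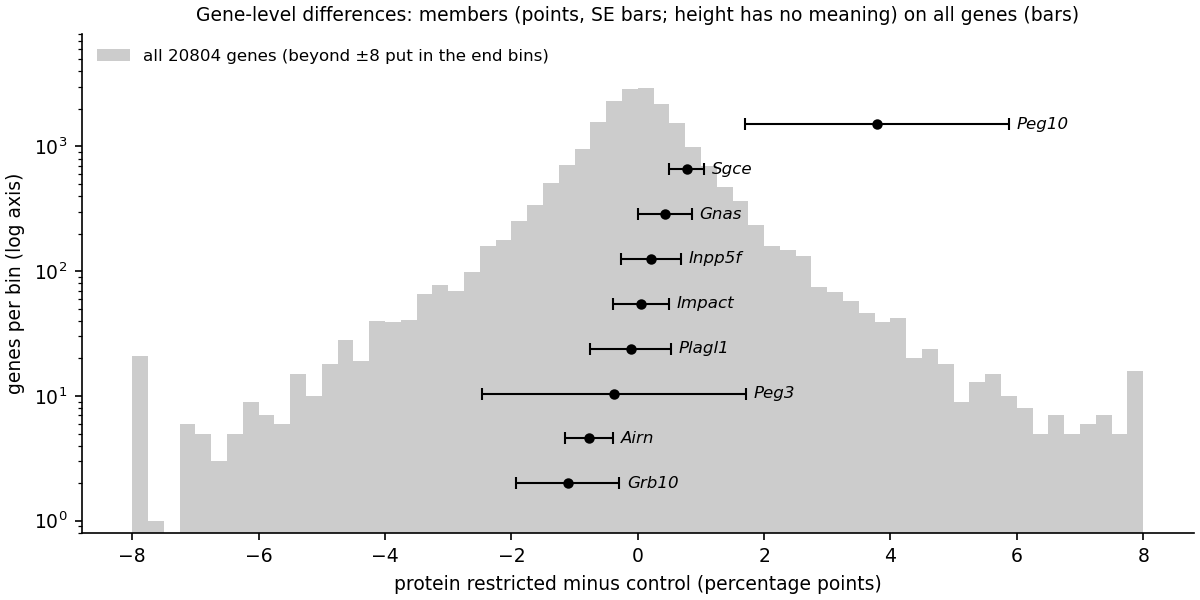
Differences in methylation, protein restricted minus control (percentage points), of the 9 members (points with SE bars, whose height has no meaning) over the distribution of all 20804 genes (bars, log axis). Peg10 lies at 3.79 points with a wide SE and the other members between -1.11 and 0.775.

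Other genes tied to imprinting were set beside the members. Of 15 imprinted neighbours of the members, 14 of which matched the RefSeq table, 10 had listed CpGs, with a median level of 97.5%, and 0 had an unadjusted p under 0.05 in the gene test. The antisense gene Gnasas1 was counted on the same 2 CpGs as the first stretch of Gnas. The lowest neighbour was Slc22a2, an organic cation transporter, at 89.1% ± 3.40 (SD, n = 8) in protein restricted and 87.0% ± 1.92 (SD, n = 7) in control sperm. Usp29, which shares the Peg3 promoter region and encodes a ubiquitin protease, was at 90.5% ± 2.59 (SD, n = 8) in protein restricted and 88.6% ± 2.41 (SD, n = 7) in control sperm. It had the smallest p of those higher in protein restricted sperm, 0.130 before adjustment. Kcnq1 had the smallest p of those lower, 0.285 unadjusted. Of 16 further genes with, or next to, a maternally methylated CpG island, 7 had listed CpGs, with a median of 97.7%, and 0 had an unadjusted p under 0.05. The lowest was Rb1, the retinoblastoma gene, whose island is imprinted in human, at 73.6% ± 3.68 (SD, n = 8) in protein restricted and 74.4% ± 6.36 (SD, n = 7) in control sperm. Snrpn, a splicing factor gene, was at 82.0% ± 3.23 (SD, n = 8) in protein restricted and 84.4% ± 4.99 (SD, n = 7) in control sperm. Its unadjusted p of 0.249 was the smallest of those lower, and that of H13, 0.370, the smallest of those higher.

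Of 13 factors that set or protect imprints, such as the DNA methyltransferases and the zinc finger protein Zfp57, 10 had listed CpGs, with a median of 97.9%, and 0 had an unadjusted p under 0.05. The lowest was Ctcf, an insulator protein gene, at 96.1% ± 0.822 (SD, n = 8) in protein restricted and 98.1% ± 1.20 (SD, n = 7) in control sperm. The Ctcf difference of -1.94 points over 2 CpGs gave p = 0.0507 before and 1 after adjustment in the quasi-binomial test. Dnmt3b, a de novo DNA methyltransferase, had the smallest p of those higher, 0.264 unadjusted. These counts stand beside 1.61% of all genes with an unadjusted p under 0.05 in the higher direction and 1.45% in the lower.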

How the data were processed

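Sperm DNA of 15 mice was profiled by MspI bisulfite sequencing. Per the file headers, each deposited table holds for every CpG its total and its methylated read count, with no normalization. The submitters' processing notes name Bismark 0.7.12, Bowtie2 2.1.0 and mm10 without their roles. Filters and trimming are not given there. All tables hold the same 204492 positions, and the lowest methylated count is 11, so the coverage minimum of 10 reads removed none. Every one of the 688 listed positions inside RefSeq promoter windows is the C of a CG on the plus strand. No 2 libraries were identical, and the mean chi-square per CpG over 105 pairs was at least 1.07.

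Methylated and unmethylated counts were fitted with a quasi-binomial logistic model (F test, 13 residual degrees of freedom, dispersion of at least 1, two-sided) in Python 3.11.15, NumPy 2.4.6 and SciPy 1.17.1, with limma 3.58.1 (R 4.3.3) as an alternative. The model was also run on simulated counts that held counting error only. That run did not test how the model handles added spread between libraries. Gene values sum counts over the RefSeq span (GRCm38.p6, the build of mm10) plus 2 kb. Percent is methylated over total counts. SE is that of a difference of means. At the summed gene counts the half-width of the 95% Wilson interval in a library ran from 0.777 to 7.63 points. The tables give no molecular identifiers, so intervals cover counting error only. Exons and introns were not analysed here.

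All members are named, and in each the CpG with the smallest p and the CpG with the lowest mean. In the lists of other imprinting genes the lowest gene, the smallest p in each direction and any gene with a CpG near its start are named. Members and lists were chosen with earlier results of these data known. Replicates are numbered in accession order. Alternatives were limma on percentages and on logit values (pseudocount 1 read), a coverage minimum of 20, no flank, at least 3 CpGs per gene, equal weights per CpG, a 2 kb start region and leaving out each library.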

Additional observations from a re-analysis of the deposited data

Results flagged for a closer look

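Among 48 sets of values of 1 diet that were searched, 6 had a library well apart from the rest. Chance flags about 1 in 20, a rate that does not hold where most libraries are at 100%. It also need not hold for the single CpGs, which were picked for the smallest p or the lowest mean in their gene. Protein restricted replicate 5 had 94.1% at the Inpp5f CpG 128668428, and its 7 companions 98.0% to 100%. Protein restricted replicate 8 had 91.3% at the Plagl1 CpG 13108546, and its companions 97.1% to 100%. In Impact, protein restricted replicate 8 had 91.7% at the CpG 12989916 and replicate 3 had 91.3% at the CpG 12989936, while each remaining library of that diet was at 100%, so that any lower value would have stood apart. Control replicate 7 had 95.7% over the summed Grb10 CpGs, and the other control libraries 98.4% to 100%. Control replicate 6 had 60.0% at the Peg10 CpG 4755892, and the others 72.5% to 81.8%.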

How the results depend on the processing

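No CpG and no gene passed the adjusted threshold under the alternatives run for each, and 0 member CpGs lay within 1 or 2 kb of a start. Member CpGs at an unadjusted p under 0.05 numbered 2, and 1 of the 30 left by a coverage minimum of 20 (where 3.47% of all CpGs kept had such a p), 4 by limma on logit values (4.56% of all CpGs), and 1 to 3 when each library was left out; they numbered 1 without protein restricted replicate 2, 4 or 5 or control replicate 1 or 3. With the coverage minimum of 20 the sign turned for Airn (0.0236 points) and Plagl1 (0.527 points, 1 CpG left), and Peg10 and Impact had no CpG left; on the logit scale it turned for Impact (-0.0763). Leaving out single libraries gave -1.23 to 0.523 points for Peg3 (sign turned without control replicate 4 or 7 or protein restricted replicate 1, 4 or 8), -0.0716 to 0.239 for Impact (control replicate 2, 3 or 7, protein restricted replicate 2, 5, 6 or 7), -0.0847 to 0.433 for Inpp5f (control replicate 2) and -0.464 to 0.0792 for Plagl1 (control replicate 1, 2, 6 or 7, protein restricted replicate 3 or 8). The cause was not tested. It gave 2.30 to 4.49 points for Peg10, 0.650 to 0.939 for Sgce, -0.963 to -0.595 for Airn, -1.64 to -0.645 for Grb10 and 0.122 to 0.623 for Gnas. No paired analysis was possible because the labels give nothing that pairs a library of 1 diet with a library of the other.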

Other observations

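Slc38a4, an amino acid transporter gene whose imprinted promoter is methylated in the egg, was the one gene with listed CpGs near an annotated start, among those genes of the 3 imprinting lists that have a start in the RefSeq table. Of its 35 CpGs, 10 (mm10 chromosome 15, 97019507 to 97019902) lay within 1 kb of 1 of the 3 starts in the RefSeq table, the nearest at 457 bp, and they averaged 95.9% ± 1.22 (SD, n = 8) in protein restricted and 96.2% ± 0.488 (SD, n = 7) in control sperm. The gene spans 96994816 to 97055956, so these CpGs lie inside it, far from both ends. Whether the start beside them is the imprinted promoter was not tested, so their level is not a measurement of that promoter. Of all 32817 annotated starts, 5.46% had a listed CpG within 1 kb.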
